A study of Mus musculus with 16 samples.

Results

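The mRNAs of interleukin-2 (IL-2) and of the receptors that share the common gamma chain with it were followed in mouse CD4+ T cells. The members were the 9 rows of the deposited gene tables, out of 53090, that carry the symbols Il2, Il2ra, Il2rb, Il2rg, Il7r, Il4ra, Il15ra, Il21r and Il9r. The list was set by symbol, with earlier results of these data known, and no measured value enters the rule. RNA was sequenced in 16 libraries that form 4 groups of 4. WT Tn and Aim2-/- Tn were naïve CD4+ T cells, isolated with magnetic beads as CD44 low and CD62L high cells of the spleen, and were not cultured. WT mice were C57BL/6, and Aim2-/- mice, kept on the C57BL/6 background, lacked Aim2 in the germline. WT Treg and Aim2-/- Treg were naïve cells of the same genotypes after 48 h with antibodies to CD3 and CD28 together with recombinant human TGF-beta and recombinant mouse IL-2. The Treg groups were therefore whole cultures named for their conditions and not cells sorted for FOXP3, and every Treg library had been exposed to added IL-2. The ages of the mice are not given in the sources used here, and the titles number the libraries 1 to 4 in each group. Where the libraries of a group do not come from separate mice, the p-values below measure only the spread between these libraries.

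The receptors treated here work as assemblies of chains. IL-2 binds an alpha chain (CD25, from Il2ra), a beta chain (CD122, from Il2rb) and the common gamma chain (CD132, from Il2rg), and the alpha chain turns a receptor of moderate affinity into one of high affinity. The beta chain is shared with the receptor for IL-15, which has its own alpha chain (Il15ra), and the gamma chain also pairs with the receptor chains for IL-7 (Il7r, CD127), IL-4 (Il4ra), IL-21 (Il21r) and IL-9 (Il9r). Signals pass through the kinases JAK1 and JAK3 to STAT5, and in the case of IL-4 and IL-21 mainly to STAT6 and STAT3. Naïve T cells depend on IL-7 for survival, whereas activated and regulatory T cells take up IL-2 through CD25.

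The members lie on several chromosomes, and 2 pairs of them are neighbours (GENCODE M21 annotation on GRCm38, in which all of them are protein-coding). Il2 lies at chr3:37120523-37125959 on the minus strand, Il2rg at chrX:101264378-101268255 (minus), Il2rb at chr15:78479256-78495271 (minus), Il7r at chr15:9505788-9530176 (minus) and Il9r at chr11:32187541-32200279 (minus). Il2ra (chr2:11642807-11693193, plus strand) is followed by Il15ra (chr2:11705290-11734317, plus strand) after a gap of 12.1 kb with no other annotated gene in it. Il4ra (chr7:125552120-125579474, plus strand) is followed in the same way by Il21r (chr7:125603429-125633570, plus strand) after 24.0 kb. Of the members, 4 overlap another annotated gene, but those genes were at 0 CPM (counts relative to the library total, as counts per 1000000) beside Il2 and Il2rg, at no more than 2.32 CPM beside Il4ra and at no more than 7.04 CPM beside Il2ra. The expected count of Il2 was fractional in 15 of the libraries, which means that reads were shared with other loci, so its level is uncertain.

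To show what precedes the genes whose levels are described below, promoter sequence was taken from RefSeq (GRCm38.p6), which held an entry for 8 of the members and none for Il2rb. The 4 printed here belong to the ligand, to the receptor chain with the largest rise and to the neighbouring pair Il4ra and Il21r. Each is written 5′ to 3′ on the strand of its gene and ends where the annotated gene begins (for Il2ra at most 250 bases, ending shortly before that point). Capitals mark matches to motifs searched on both strands: the NFAT core GGAAA, the FOXO motif TGTTTAC and an NF-kB motif known by its name. In the Il2ra sequence the NF-kB match, which was found at 2 overlapping positions, runs into the NFAT match.

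Il2, chr3:37125960-37126204, minus strand: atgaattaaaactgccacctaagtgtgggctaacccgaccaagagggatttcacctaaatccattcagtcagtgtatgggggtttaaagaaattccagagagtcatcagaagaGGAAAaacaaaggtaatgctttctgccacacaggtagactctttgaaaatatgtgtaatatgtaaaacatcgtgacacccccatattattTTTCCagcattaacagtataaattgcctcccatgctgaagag

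Il2ra, chr2:11642542-11642791, plus strand: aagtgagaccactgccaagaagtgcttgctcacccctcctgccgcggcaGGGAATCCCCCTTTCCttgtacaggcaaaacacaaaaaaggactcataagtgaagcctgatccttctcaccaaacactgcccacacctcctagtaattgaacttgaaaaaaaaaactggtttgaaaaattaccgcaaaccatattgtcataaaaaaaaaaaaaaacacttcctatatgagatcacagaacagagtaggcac

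Il4ra, chr7:125552021-125552119, plus strand: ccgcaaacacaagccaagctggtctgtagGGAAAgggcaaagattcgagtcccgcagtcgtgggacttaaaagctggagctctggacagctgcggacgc

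Il21r, chr7:125603179-125603428, plus strand: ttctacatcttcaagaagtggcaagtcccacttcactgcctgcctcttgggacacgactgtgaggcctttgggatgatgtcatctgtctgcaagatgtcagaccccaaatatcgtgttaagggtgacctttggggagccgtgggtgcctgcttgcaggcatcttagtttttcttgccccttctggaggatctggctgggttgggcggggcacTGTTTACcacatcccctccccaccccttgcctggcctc

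The Il2 sequence holds 2 NFAT cores, and those of Il2ra and Il4ra hold 1 each. That core is present in 55.7% of 32536 promoter windows of 250 bases, and the printed stretches of Il2 and Il4ra are shorter than that, so that its presence sets none of the members apart. The NF-kB motif of Il2ra occurs in 3.92% of the promoters and the FOXO motif of Il21r in 3.17%. The STAT motif TTCNNNGAA (7.04% of promoters) matched only the Il7r entry, in a window that lies inside the annotated gene and is not printed, and AP-1 (TGANTCA, 6.73%) matched only a second entry of Il15ra, also inside its gene. The STAT6 motif (5.89%) matched no member. These are matches of letters and say nothing about binding.

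Depth was 22516394 to 34533297 expected counts per library, so that 3 counts, taken as the floor, stood for 0.0869 to 0.133 CPM, a limit that covers counting error only. CPM values carry TMM scaling. Aim2 itself was at 32.0 to 37.8 CPM in WT Tn against 6.44 to 9.21 CPM in Aim2-/- Tn, and at 36.1 to 43.7 CPM in WT Treg against 7.29 to 10.9 CPM in Aim2-/- Treg, so the genotype of every library matched its label although the transcript was not absent. The markers of CD4 T cells summed to 3000 to 3450 CPM in Tn and 1200 to 1360 CPM in Treg, Foxp3 was at 1.97 to 3.98 CPM in Tn and 283 to 574 CPM in Treg, and Ms4a1 was at 0 CPM in every library. Of the 2 CD8 T cell markers, Cd8a was at no more than 0.342 CPM, while Cd8b1 was at 8.91 to 12.1 CPM in Tn and 1.95 to 3.93 CPM in Treg, and its part in the results was not tested. The B cell list was carried by Ighm (420 to 558 CPM in Tn, 121 to 171 CPM in Treg), whose part in the results was not tested, and the myeloid list summed to 24.7 to 38.9 CPM in Tn and 23.1 to 27.1 CPM in Treg. In WT Tn, replicates 1 and 2 stood apart from replicates 3 and 4 for some members. No label says what distinguishes them, so the results that touch this split are given over all replicates and within each pair. The division follows the numbers in the titles and was made with earlier results of these data known, so that the tests of it below describe a pattern already seen and are not independent evidence of it.

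In naïve cells of either genotype the gamma chain mRNA led, followed by the receptor chain mRNAs for IL-7, IL-4 and IL-21, with almost no CD25 mRNA. To set genes side by side, counts were divided by exon length and scaled to the same sum in every library, which gives TPM values. On this scale WT Tn had Il2rg at 771.9 ± 60.8 (SD, n = 4), then Il4ra at 442.7 ± 254.5, Il21r at 402.3 ± 187.2 and Il7r at 333.6 ± 24.4. Neighbours in this order overlapped from library to library, since Il4ra and Il21r varied widely. Il2rb followed at 35.9 ± 3.03, Il15ra at 4.86 ± 0.765 and Il2ra at 1.88 ± 0.524, and each of these steps was larger than the spread. Aim2-/- Tn had the same order except that Il21r (321.6 ± 53.2) and Il4ra (315.1 ± 108.3) changed places within overlapping ranges, and there Il2rg (791.8 ± 17.2) stood above every other member in all libraries.

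After culture the order was a different one, with the 3 chains of the IL-2 receptor on top. Per exon length, Il2ra was at 814.8 ± 40.0 in WT Treg and 744.9 ± 53.9 in Aim2-/- Treg, above Il2rg (439.5 ± 18.4 and 432.0 ± 31.4) and Il2rb (413.4 ± 27.1 and 396.5 ± 57.4), and the latter pair overlapped. Il4ra (118.7 ± 14.1 and 103.5 ± 13.4) and Il21r (92.9 ± 18.0 and 95.2 ± 7.26) formed the next overlapping pair. Il15ra (6.11 ± 1.89 and 7.96 ± 1.79) and Il7r (5.57 ± 1.58 and 5.93 ± 0.733) formed another, followed by Il2 and Il9r.

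Because all of these receptors draw on the same gamma chain, each chain was also expressed as a percentage of Il2rg per exon length in the same library. Il2ra stood at 0.240% ± 0.0504 of Il2rg in WT Tn and at 186% ± 15.3 in WT Treg (SD, n = 4), with 0.221% ± 0.0371 and 174% ± 24.0 in Aim2-/- cells. Il2rb went from 4.65% ± 0.340 to 94.4% ± 10.1 in WT and from 3.66% ± 0.837 to 92.8% ± 19.1 in Aim2-/- cells. Il7r moved the other way, from 43.3% ± 3.14 in WT Tn to 1.26% ± 0.313 in WT Treg. These are ratios of mRNA and not of protein, and they depend on the length assigned to a gene: with the longest transcript in place of all exons, Il2rb in WT Treg was at 67.5% ± 7.20 and Il2ra at 168% ± 13.9.

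**Figure D1:**
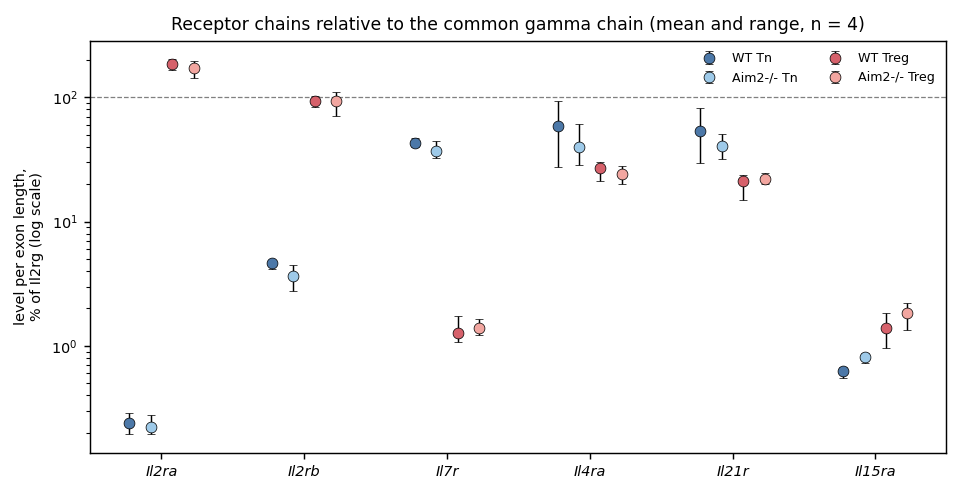
Level per exon length of 6 receptor chains as a percentage of Il2rg in the same library, on a log axis, with the mean (points) and the range (bars) of 4 libraries per group and a dashed line at 100%. Il2ra lies far below 1% in both Tn groups and above the line in both Treg groups, while Il7r falls from 43.3% to 1.26% in WT.

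The next comparison asked how each member differed between Treg culture and naïve cells, separately in each genotype. Of the 9 members, 7 had enough counts to be tested (at least 10 counts in at least 4 libraries), and 6 of them passed an adjusted p of 0.05 in each genotype, 2 higher (Il2ra and Il2rb) and 4 lower (Il2rg, Il7r, Il4ra and Il21r) in Treg. The quasi-likelihood test of edgeR was used, with p-values adjusted over all genes by the Benjamini-Hochberg method. It called 76.9% of all genes in WT (37.7% higher and 39.2% lower) and 79.3% in Aim2-/- cells (39.1% higher and 40.2% lower), so a call as such says little here, and the size of the difference carries the information. The median log2 fold change was -0.91 in WT and -0.98 in Aim2-/- cells over the 7 tested members, and -0.05 and -0.04 over all genes. CPM is a share of the mRNA, so fewer cells of a type and less RNA per cell cannot be told apart.

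Il2ra, which encodes CD25, had the largest difference of the members. In WT it was at 2.65, 2.88, 4.11 and 4.11 CPM in the naïve libraries and at 1476, 1513, 1473 and 1398 CPM in the cultures. The Aim2-/- libraries were at 2.91, 3.09, 4.58 and 3.06 CPM in Tn and at 1431, 1482, 1340 and 1321 CPM in Treg. No Tn library came near a Treg library in either genotype. The fold was 410.5 in WT (log2 fold change 8.68, SE 0.17, edgeR adjusted p = 5.1e-10) and 394 in Aim2-/- cells (8.62, SE 0.17, edgeR adjusted p = 7.5e-12).

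Il2rb, the signalling beta chain shared by IL-2 and IL-15, was at 48.8, 51.5, 54.2 and 45.0 CPM in WT Tn and at 596.5, 578.6, 525.9 and 531.6 CPM in WT Treg. Aim2-/- Tn had 49.9, 34.5, 53.2 and 31.4 CPM and Aim2-/- Treg 619.1, 614.0, 502.7 and 489.3 CPM. The cultures thus exceeded the naïve cells 10.8-fold in WT (log2 fold change 3.43, SE 0.09, edgeR adjusted p = 1.4e-09) and 12.7-fold in Aim2-/- cells (3.67, SE 0.19, edgeR adjusted p = 2.1e-08). Within Tn, replicate 3 was the highest and replicate 4 the lowest library for Il2rb in both genotypes. The 5 NK cell markers, cells in which Il2rb is abundant, summed to 26.9, 27.4, 34.7 and 24.4 CPM in WT Tn and to 38.3, 18.0, 33.4 and 21.4 CPM in Aim2-/- Tn, against 3.28 to 6.88 CPM in Treg. Of these markers Ncr1 and Klra8 were at no more than 0.270 CPM in Tn, and the part of such cells in the Il2rb values was not tested.

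Il2rg, the common gamma chain, was at 569.3, 606.4, 609.1 and 601.5 CPM in WT Tn and at 321.7, 313.5, 333.6 and 353.2 CPM in WT Treg. Its share of the mRNA was thus 1.87-fold lower in WT cultures (log2 fold change -0.91, SE 0.06, edgeR adjusted p = 4.4e-07) and 1.97-fold lower in Aim2-/- cultures (-0.97, SE 0.09, edgeR adjusted p = 1.0e-06), with no overlap. While the shares of the alpha and beta chain mRNAs rose, that of the gamma chain fell. Such a fall was not particular to Il2rg. The 6 markers of CD4 T cells summed to 3000 to 3200 CPM in WT Tn and 1200 to 1300 CPM in WT Treg.

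Il7r, the receptor chain for the survival factor IL-7, had the largest decrease of the members. WT Tn had 527.1, 471.7, 517.2 and 500.1 CPM and WT Treg 6.87, 7.04, 6.97 and 11.9 CPM. Aim2-/- Tn had 537.1, 389.1, 446.1 and 457.4 CPM and Aim2-/- Treg 10.1, 7.64, 8.93 and 9.59 CPM. The ranges were far apart in both genotypes, with a fold of 64.0 in WT (log2 fold change -6.00, SE 0.20, edgeR adjusted p = 6.5e-09) and 52.4 in Aim2-/- cells (-5.71, SE 0.13, edgeR adjusted p = 2.5e-11).

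Il4ra and Il21r, the neighbours on chromosome 7, both fell, and by amounts that depended on the replicates. Il4ra was at 1260, 1432, 417.7 and 418.9 CPM in WT Tn and at 245.7, 224.3, 236.4 and 190.2 CPM in WT Treg. Il21r was at 565.4, 694.1, 250.1 and 257.2 CPM in WT Tn and at 103.5, 101.2, 68.9 and 116.4 CPM in WT Treg. The log2 fold change in WT was -2.03 for Il4ra (SE 0.42, edgeR adjusted p = 0.0017) and -2.23 for Il21r (SE 0.35, edgeR adjusted p = 0.00031). With replicates 1 and 2 alone it was -2.51 and -2.61, and with replicates 3 and 4 alone -1.03 and -1.51, and each of these was called. In Aim2-/- cells the pooled values were -1.70 (SE 0.20, edgeR adjusted p = 1.7e-05) and -1.85 (SE 0.11, edgeR adjusted p = 3.8e-08).

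Il15ra, the alpha chain through which cells hold and present IL-15, was low in all groups and was not called. Its log2 fold change was 0.24 in WT (95% interval -0.26 to 0.74, edgeR adjusted p = 0.34) and 0.21 in Aim2-/- cells (-0.19 to 0.61, edgeR adjusted p = 0.30). The value in Aim2-/- cells rested on the libraries included, since it was 0.40 without Aim2-/- Treg replicate 1 (edgeR adjusted p = 0.024).

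**Figure D2:**
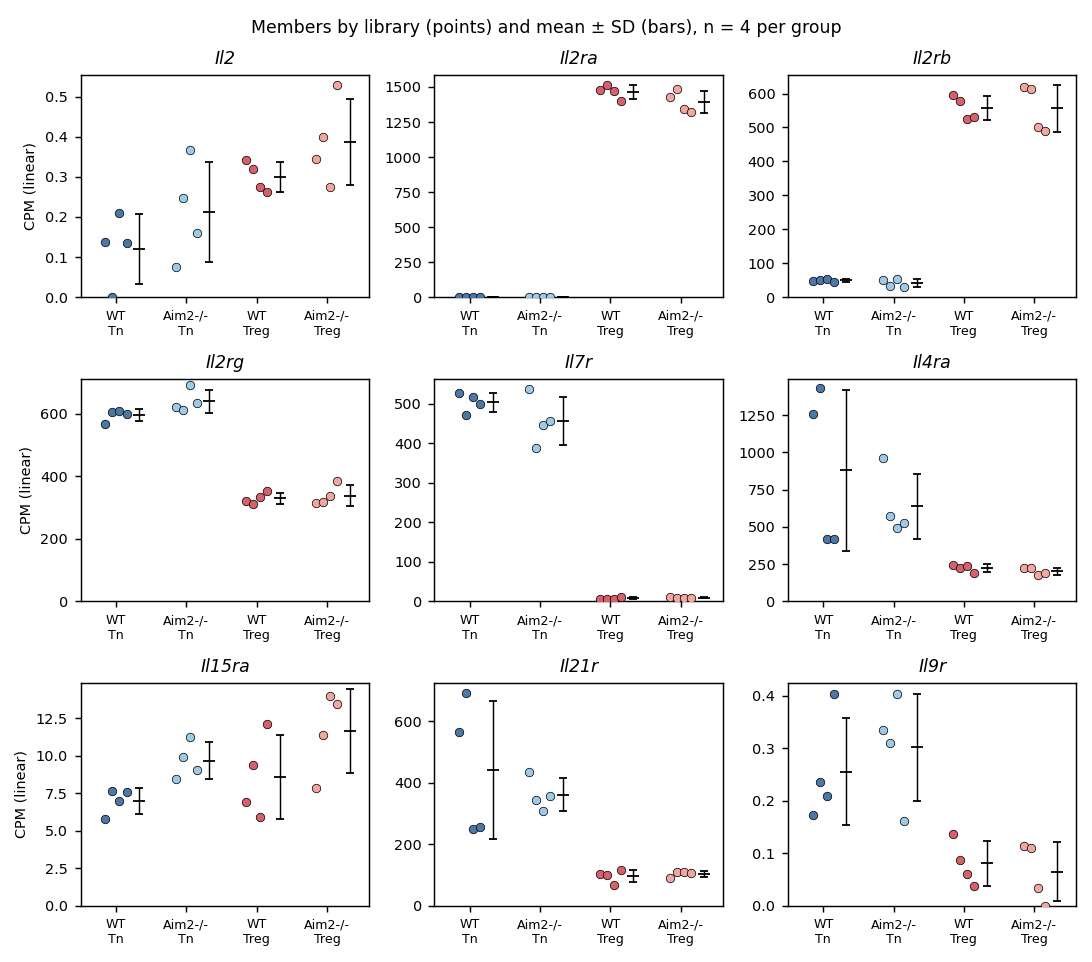
CPM of the 9 members in each of the 16 libraries, with points in the order of replicates 1 to 4, and the mean ± SD of each group of 4 beside them, on linear axes that differ between panels. Il2ra and Il2rb are high in Treg and Il2rg and Il7r in Tn, and in the panels of Il4ra and Il21r the WT Tn points fall into a high and a low pair.

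Il2 and Il9r were at the edge of detection. The expected counts of Il2 were 4.42, 0, 5.32 and 4.34 in WT Tn, 2.12, 7.70, 9.61 and 5.40 in Aim2-/- Tn, 9.63, 10.8, 8.82 and 6.55 in WT Treg and 9.49, 10.6, 7.54 and 14.4 in Aim2-/- Treg. The highest library was at 0.528 CPM, and in WT the cultured libraries lay above the naïve ones, which the Aim2-/- libraries did not. With no filter on low counts, Il2 was not called for culture in either genotype. Its log2 fold change was 1.28 in WT (SE 0.63, edgeR adjusted p = 0.11) and 0.83 in Aim2-/- cells (SE 0.52, edgeR adjusted p = 0.20). Il9r, the IL-9 receptor chain, had 5 to 12 counts in each Tn library and 0 to 4 in each Treg library of either genotype, and it did not pass the filter in any comparison of 4 against 4 libraries. With no filter on low counts it was called lower in culture in both genotypes (log2 fold change -1.62, SE 0.61, edgeR adjusted p = 0.038 in WT, and -2.17, SE 0.70, edgeR adjusted p = 0.012 in Aim2-/- cells). Among the ligands of the other receptors, Il9 had 0 counts in every Tn library and was at 11.6 to 18.5 CPM in WT Treg and 5.81 to 30.5 CPM in Aim2-/- Treg. Il4, Il7, Il13, Il15, Il21 and Tslp did not exceed 0.732 CPM in any library and were not tested.

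The comparison of genotypes asked whether loss of Aim2, a cytosolic DNA sensor, went with other levels of these mRNAs. None of the 7 members tested in Tn and none of the 8 tested in Treg was called by edgeR, where 0.231% and 0.219% of all genes were. At an unadjusted p under 0.05 there was 1 member in Tn (10.3% of all genes) and 0 in Treg (2.31% of all genes), and DESeq2 called 0 in either state. The intervals show how large a difference could remain. For Il2ra in Treg the log2 fold change of Aim2-/- against WT was -0.08 (95% interval -0.19 to 0.03), for Il2rb -0.01 (-0.22 to 0.19) and for Il2rg 0.02 (-0.13 to 0.18). The bounds were wider for Il7r (0.14, -0.30 to 0.58), Il4ra (-0.15, -0.38 to 0.08), Il21r (0.08, -0.25 to 0.41) and Il2 (0.35, -0.32 to 1.01).

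In naïve cells the intervals were -0.49 to 0.50 for Il2ra (log2 fold change 0.01), -0.58 to 0.15 for Il2rb (-0.22), -0.05 to 0.30 for Il2rg (0.12) and -0.35 to 0.11 for Il7r (-0.12). For Il4ra (-0.44, -1.54 to 0.65) and Il21r (-0.27, -1.04 to 0.51) the spread between replicates left differences of more than 2-fold within the interval. The interaction of genotype and culture, which asks whether the culture difference depended on Aim2, was called for 0 of 8 members (0.0205% of all genes). Its values ran from -0.46 for Il2 to 0.36 for Il21r with an edgeR adjusted p of 1.0 throughout. At an unadjusted p under 0.05 there were 0 members (3.49% of all genes).

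**Figure D3:**
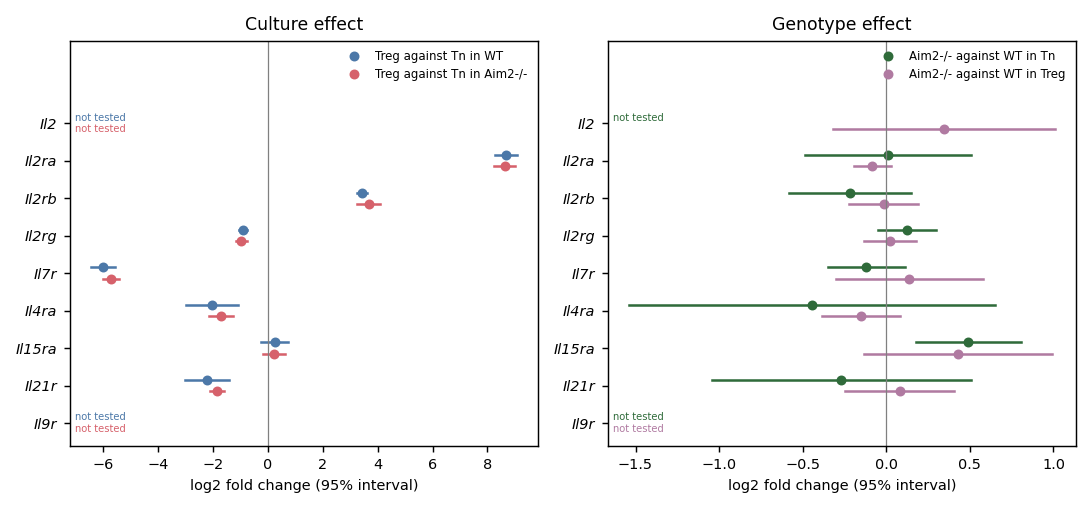
Log2 fold change (points) with the 95% interval (lines) for Treg against Tn in each genotype (left) and Aim2-/- against WT in each state (right), from edgeR. The culture differences span -6.00 to 8.68, while the genotype differences stay between -0.44 and 0.49 and, except for Il15ra in Tn, their intervals include 0.

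Of the members that passed the filter, Il15ra had the largest genotype difference over all replicates. With no filter, Il2 in Tn was at 0.79 (SE 0.73, edgeR adjusted p = 0.71), on the few counts given above. Il15ra was at 5.79, 7.65, 6.95 and 7.55 CPM in WT Tn and at 8.43, 9.93, 11.3 and 9.04 CPM in Aim2-/- Tn. All Aim2-/- naïve libraries were above all WT ones. The log2 fold change was 0.49 (SE 0.14, 95% interval 0.18 to 0.81), and with an unadjusted p of 0.0058 from edgeR it failed the adjustment (adjusted p = 0.36). Within replicates 1 and 2 it was 0.48 and within replicates 3 and 4 0.49. In Treg the libraries overlapped: WT cultures had 6.91, 9.36, 5.94 and 12.1 CPM, and Aim2-/- cultures had 7.82, 11.4, 14.0 and 13.4 CPM (0.43, 95% interval -0.13 to 0.99, edgeR adjusted p = 0.999). In Tn, 2 of the members had groups that did not overlap, Il15ra and Il2rg, both higher in Aim2-/-, as had 3.0% of all genes in that direction. For Il2rg this held with TMM scaling, but without any scaling factor the ranges overlapped, at 616.7 to 693.8 CPM in Aim2-/- Tn and 554.7 to 645.8 CPM in WT Tn. The sum of the 5 erythroid markers also did not overlap in Tn, at 1.22 to 3.96 CPM in WT and 5.11 to 7.78 CPM in Aim2-/-. Taken singly, Hba-a1, Hba-a2 and Hbb-bt overlapped. Cd79a of the B cell list was at 0.607 to 0.906 CPM in WT Tn and 1.1 to 1.7 CPM in Aim2-/- Tn. Lyz2 of the myeloid list was at 0.118 to 0.922 and 0.928 to 1.43 CPM. The summed B cell and myeloid lists overlapped. The part of such cells in the Il15ra values was not tested.

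The replicate split was widest in the neighbours Il4ra and Il21r. In Aim2-/- Tn Il4ra was at 962.2, 572.3, 496.3 and 523.9 CPM and Il21r at 435.4, 343.3, 307.3 and 357.5 CPM, every one of them between the low and the high pair of WT libraries. In a fit over both genotypes Il4ra was lower in replicates 3 and 4 (log2 fold change -1.13, SE 0.26, edgeR adjusted p = 0.045, with 6.98% of all genes called), and Il21r was at -0.76 (SE 0.22, edgeR adjusted p = 0.073). For Il4ra in Aim2-/- Tn this rested mostly on replicate 1 (962.2 CPM), since replicate 2 (572.3 CPM) lay close to replicates 3 and 4. The replicate numbers were not taken to pair libraries of the genotypes. The genotype difference took opposite signs in the 2 pairs of replicates, as the WT pairs lay above and below the Aim2-/- libraries. For Il21r it was -0.67 within replicates 1 and 2 and 0.40 within replicates 3 and 4, and the difference between these was called (1.08, SE 0.20, edgeR adjusted p = 0.036, with 1.93% of all genes called). For Il4ra it was -0.79 and 0.29, and the difference of 1.09 (SE 0.28) was not called (edgeR adjusted p = 0.082). None of the 4 values within a pair of replicates was called. Without WT Tn replicate 2 the pooled value of Il21r was 0.03.

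The split was not particular to this pair of genes. Ccr7, a homing receptor of naïve cells, ranged from 408 to 1560 CPM in WT Tn, and Ctla4, an inhibitory receptor, from 12.7 to 79.7 CPM, and their genotype differences also differed between the pairs of replicates (1.44, SE 0.29, edgeR adjusted p = 0.045, and 2.16, SE 0.18, edgeR adjusted p = 0.0012). Both were named after their values were seen. Of the 85 pathway genes tested, 4 had a genotype difference that differed between the pairs of replicates, all in the direction of Il21r, as were 207 of the 259 genes called in all: Stat5a, a transducer of IL-2 and IL-7 signals (1.27, SE 0.23), the phosphatase gene Dusp5 (1.75, SE 0.28), Xbp1 (1.59, SE 0.18) and the endosomal GTPase gene Rab5a (0.91, SE 0.16). The other members tested, Il2ra, Il2rb, Il2rg, Il7r and Il15ra, had values between -0.23 and 0.06 and were not called (edgeR adjusted p of 0.763 or more). In Treg no gene was called for such a difference by edgeR (436 at an unadjusted p under 0.05), but Il2rb was lower in replicates 3 and 4 of both genotypes (-0.24, SE 0.04, edgeR adjusted p = 0.0056, with 22.6% of all genes called). Foxp3 (-0.69, SE 0.18) and Cish (-0.34, SE 0.06) were lower in the same libraries, and both were picked without a rule for this comparison. Of the 85 pathway genes tested there, 10 were called higher and 16 lower. Among the 18 targets of IL-2 and STAT5 listed below, 4 were called higher and 2 lower. The member Il2rg was higher without being called (0.14, SE 0.05, edgeR adjusted p = 0.060).

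**Figure D4:**
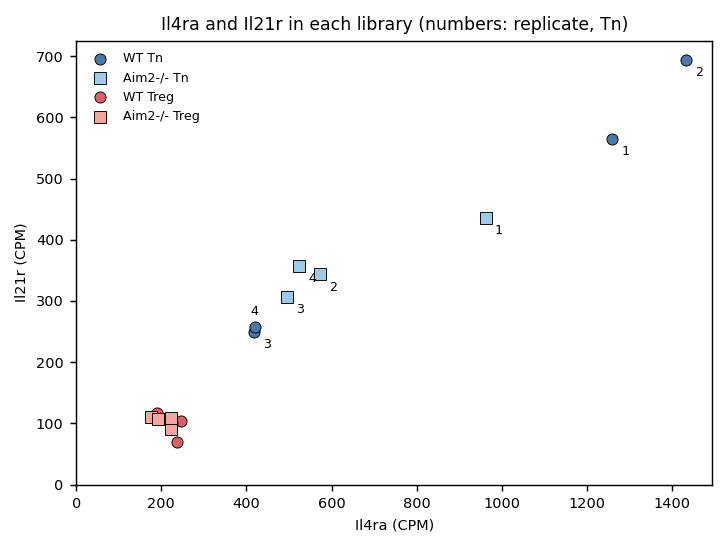
Il21r against Il4ra in CPM on linear axes, 1 point per library, with the replicate number beside each Tn point. WT Tn replicates 1 and 2 lie at the top right, replicates 3 and 4 at 417.7 and 418.9 CPM of Il4ra lie lowest among the Tn libraries, and all Treg libraries are at or below 245.7 CPM of Il4ra.

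The genes around the receptors were taken from 9 lists with 95 genes. Of these, 86 were tested for culture in WT, of which 32 rose and 38 fell, and 87 in Aim2-/- cells, of which 36 rose and 41 fell, shares close to those of all genes given above. Of the 8 signal transducers, 3 rose and 3 fell in WT. The kinase gene Jak1 went from a mean of 1110 to 375 CPM (log2 fold change -1.61, SE 0.11), and Tyk2 fell (-1.25, SE 0.06). Stat5b rose (0.49, SE 0.06), whereas Stat5a was not called in WT (0.86, SE 0.38, edgeR adjusted p = 0.066) and rose in Aim2-/- cells (1.21, SE 0.13). Jak3, the kinase bound to the gamma chain, was not called in WT (0.05, SE 0.11, edgeR adjusted p = 0.69). In Aim2-/- cells it was lower after culture than in Tn (-0.36, SE 0.08). Its mean in Treg was 160 CPM in WT and 161 CPM in Aim2-/-, against 149 and 199 CPM in Tn. The genotype difference of Jak3 in Tn was not called (0.44, SE 0.11, edgeR adjusted p = 0.27). The culture difference was not called as differing between the genotypes for Stat5a (interaction 0.32, SE 0.44) or Jak3 (-0.43, SE 0.14), with an edgeR adjusted p of 1.0 for each. Stat5a, Stat5b and Jak3 were named after their values were seen. Reads of Stat5a, Stat5b and Jak3 were in part shared with other loci, as their expected counts were fractional in all libraries. The same held for Foxp3, Il12rb2, Vps35 and Rab5a. Counts were fractional in 14 libraries for Cish and Satb1, in 11 for Tyk2, in 9 for Socs2, in 5 for Il4ra and in 1 for Junb.

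The next lists hold feedback genes and targets of IL-2 and STAT5, and their counts are to be read against the 37.7% of all genes called higher and the 39.2% called lower in WT. Of 10 feedback genes 5 rose and 3 fell in WT (median log2 fold change 0.41, against -0.05 over all genes), among them Socs2, an inhibitor of cytokine receptors, from a mean of 0.712 to 306 CPM (log2 fold change 8.67, SE 0.21), Cish, the STAT5-induced inhibitor, from 24.3 to 356 CPM (3.82, SE 0.17), and the phosphatase gene Ptpn1 (0.91, SE 0.08). Of 18 targets 10 rose and 5 fell (median 0.61), with Foxp3, the Treg transcription factor (7.41, SE 0.35), and Bcl2l1, a survival gene (3.02, SE 0.08), among the former and Mcl1, another survival gene (-1.56, SE 0.08), among the latter. In Aim2-/- cells 12 targets rose and 5 fell.

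The factors known to act on transcription of Il2 and Il7r are to be read against the same shares. Of 17 factors linked to Il2 transcription 4 rose and 11 fell in WT (median log2 fold change -0.76), including Fos (log2 fold change -8.34, SE 0.23) and Junb (-3.96, SE 0.11), both parts of AP-1, and the chromatin organizer gene Satb1 (-3.63, SE 0.16). Of 11 factors linked to Il7r, 1 rose and 6 fell (median -1.13), including Klf2 (-3.61, SE 0.15), Tcf7 (-2.26, SE 0.13) and Ets1 (-1.55, SE 0.09). Among adaptors and kinases downstream, 2 of 9 rose and 6 fell, with Akt1 higher (1.23, SE 0.07) and the PI3 kinase gene Pik3cd lower (-1.48, SE 0.08), while Gab2 stood near the floor in Tn (mean 0.117 CPM) and at 2.40 CPM in Treg. Of 3 partner chains, Il12rb2, a chain of the IL-12 receptor, rose (3.68, SE 0.50), and Il6st, the gp130 chain (-1.75, SE 0.16), and Crlf2, which pairs with Il7r in the TSLP receptor (-0.93, SE 0.12), fell. Of 9 genes of receptor shedding and trafficking 5 rose and 2 fell, with Adam10 (1.12, SE 0.08) and Vps35 (1.12, SE 0.10) higher and Mmp9 at a mean of 3.09 CPM in Tn and near the floor in Treg.

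Between the genotypes, 1 of the pathway genes was called in each state, where 0.231% of all genes were called in Tn and 0.219% in Treg. Rab4a, which encodes a GTPase of rapid receptor recycling, was at 17.9, 19.2, 13.2 and 12.3 CPM in WT Tn and at 1.64, 1.76, 1.94 and 2.32 CPM in Aim2-/- Tn. It was at 5.10, 4.87, 4.26 and 4.70 CPM in WT Treg and at 0.839, 0.437, 0.445 and 0.302 CPM in Aim2-/- Treg. The groups were far apart in both states, with a log2 fold change of -3.00 (SE 0.19, edgeR adjusted p = 1.9e-05) in Tn and -3.23 (SE 0.28, edgeR adjusted p = 0.0013) in Treg. Rab4a lies on chromosome 8 and Aim2 on chromosome 1. Whether the Rab4a difference comes from loss of Aim2 or from another difference between the mouse lines was not tested. None of the others of the 85 genes tested in each state was called. With Rab4a included, 7 in Tn and 3 in Treg had an unadjusted p under 0.05, as had 10.3% and 2.31% of all genes.

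Genes whose profile over the 16 libraries was most like that of a member were found by Pearson's r of log2 CPM among 10648 other protein-coding genes with a mean of at least 1 CPM. The values are a description, since libraries of the same culture state share most of the pattern. Il2ra was nearest to the mitotic genes Ccnb2 (r = 1.0) and Cdk1 (r = 0.999), with 708 genes at 0.99 or more. Il2rb was nearest to Copb2 (0.998) and 2900026A02Rik (0.997), with 348 genes at that level, and Il7r to Fos (0.998) and Parp6 (0.997), with 94. Il2rg had 7 such genes, led by Grap (0.994) and Zfp467 (0.993). The neighbours that carry the replicate split had none: Il4ra was nearest to Slc25a36 (0.987) and 1810013L24Rik (0.987), and Il21r to Pvr (0.989) and Sqstm1 (0.988). Il15ra was nearest to the antigen-processing genes Tap1 (0.928) and Psmb9 (0.907), and Il2 to Ttc4 (0.916) and E130218I03Rik (0.900). Il15ra and Il2 likewise had no gene at 0.99 or more.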

How the data were processed

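RNA-seq libraries of 16 samples, 4 in each of 4 groups, were assigned to groups and replicate numbers from their deposited titles. The names under which the counts were deposited number some libraries differently from the titles, and the titles were used, so the division of the replicates below rests on them. The authors made stranded mRNA libraries, aligned single-end reads to GRCm38 with STAR, and deposited the expected count per gene from RSEM (GENCODE m15), without normalization. Versions and the strand setting are not given in the sources used here. Expected counts were rounded to whole numbers. Depth was 22516394 to 34533297 counts per library, and the reads carried no molecular identifiers, so floors cover counting error only. The 9 members, the gene lists, the marker lists and the division of the replicates into 1 and 2, and 3 and 4, were chosen with earlier results of these data known.

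Genes that reached 10 counts in 4 or more libraries of a comparison were tested by the two-sided quasi-likelihood test of edgeR 4.0.16 (R 4.3.3, TMM, robust) on the 8 libraries compared, or on all 16 for the interaction, with Benjamini-Hochberg adjustment over all genes tested and a threshold of 0.05. The study used limma for its own comparisons. Log2 fold changes carry standard errors (SE) and 95% intervals from the same fit. From each pathway list the 3 tested genes with the smallest p for culture in WT were named, except 1 that is not reported here, with every gene called between genotypes. Alternatives were DESeq2 1.42.0, limma-voom (limma 3.58.1), RLE size factors, no filter, all 16 libraries in one fit, a term for the replicate split, the replicate number as a block, each library left out in turn, the longest transcript as gene length and, added after seeing the data, fits within each pair of replicates. Coordinates came from GENCODE M21 (98.9% of genes matched). The genotype fits by edgeR, limma-voom and DESeq2 were tested on simulated counts.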

Additional observations from a re-analysis of the deposited data

Results flagged for a closer look

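In 3 of 36 groups of 4 libraries, 1 library stood far from the other 3, where chance alone flags about 1 group in 20. Il2ra was at 4.58 CPM in Aim2-/- Tn replicate 3, above 2.91 to 3.09 CPM in the others. Il7r was at 11.9 CPM in WT Treg replicate 4, above 6.87 to 7.04 CPM in the others. Il4ra was at 962 CPM in Aim2-/- Tn replicate 1, above 496.3 to 572.3 CPM in the others.

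The genotype difference of Il21r in Tn was not the same in replicates 3 and 4 as in replicates 1 and 2. It differed by 1.08 on the log2 scale between them (SE 0.20, edgeR adjusted p = 0.036), as given with the library values above. The division of the replicates was made with earlier results of these data known, and the numbers were not taken to pair libraries of the genotypes.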

How the results depend on the processing

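The 6 members called for culture in WT were called with the same direction under every alternative run, and the genotype and interaction comparisons called 0 members under every one. Il15ra in Tn stayed between 0.40 and 0.55 when libraries were left out in turn, with an edgeR adjusted p of 0.25 to 0.70. For genotype in Tn, where the main count of genes called was 31, it was 127 with DESeq2, 47 with no filter, 51 with a term for the replicate split, 64 with all 16 libraries in one fit and 499 with replicates 3 and 4 only, and 17 to 28 when a library was left out. For genotype in Treg, with a main count of 29, it was 52 with DESeq2, 5 with replicates 3 and 4 only, and 10 to 17 when a library was left out. For the interaction, with a main count of 3, it was 10 with DESeq2, 1 with the replicate block and 2 to 5 when a library was left out. Of the 95 pathway genes, those called for genotype were 1 in each state and 2 with DESeq2 in Tn. With replicates 3 and 4 only, 9 were called in Tn, beside 499 of all 13503 genes tested. In Treg 0 were called with these replicates, beside 5 of all 13265 genes tested. The replicate block gave 29 genes in Tn and 41 in Treg and changed the call of no member. Same-numbered libraries of the genotypes did not deviate together throughout (correlations of 0.179, 0.0373, 0.303 and 0.0236 in Tn, and of 0.395, 0.229, -0.0134 and 0.351 in Treg, where not every pair exceeded 0.1), so the numbers were not taken to pair the samples.

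Some values changed sign, and not only those near 0. In Tn, Il2ra (0.01) was -0.0078 with DESeq2, -0.0076 with RLE, -0.015 with no filter, -0.010 with all 16 libraries and -0.10 with replicates 3 and 4 only. With replicates 3 and 4 only, Il4ra in Tn was 0.29 against -0.44 in the main fit, and Il21r 0.40 against -0.27. In Treg, replicates 1 and 2 only gave 0.063 for Il2rb, -0.015 for Il2rg and -0.050 for Il21r, and replicates 3 and 4 only gave -0.040 for Il7r. Leaving out libraries gave -0.16 to 0.10 for Il2ra and -0.47 to 0.0335 for Il21r in Tn, -0.0744 to 0.0457 for Il2rb, -0.0395 to 0.0549 for Il2rg and -0.0569 to 0.17 for Il21r in Treg, and -0.18 to 0.0857 for Il2ra, -0.0374 to 0.55 for Il4ra and -0.19 to 0.17 for Il15ra in the interaction. The causes were not tested. Depth limits Il2 and Il9r, which had no more than 14.4 expected counts per library.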
